A study of Mus musculus with 4 samples.

Results

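Imprinted genes that have been reported to guard the quiescence of hematopoietic stem cells (HSC) were followed across 7 clusters of HSC, named c1 to c7, from mouse bone marrow. The set comprises 9 genes, chosen by name: H19, Meg3, Rian, Ndn, Grb10, Peg3, Igf2r, Plagl1 and Cdkn1c. Of these, 8 had a row among the 20062 genes of the deposited tables, and Rian was not analysed here. The series holds 4 samples of purified HSC, 2 labelled old and 2 labelled young, taken at steady state from mice that all carry Gfp-Lc3, a reporter in which LC3, a protein of autophagosomes, bears a fluorescent tag. The deposited files are 8 tables of the authors' own comparisons, each cluster against the remaining cells and c1 against c2. They give no value per sample, per age or per level of GFP-LC3, so old and young were not compared here. Each of these 7 comparisons against the rest shares its cells with the others, and the number of cells, the depth and the spread between mice are unknown.

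Imprinted genes are transcribed from the copy inherited from a given parent, and the silent copy is marked by DNA methylation or chromatin laid down in the germ line. Many of them regulate growth: in mouse HSC, the maternal H19 RNA is known to restrain insulin-like growth factor (IGF) signalling, the noncoding RNAs of the Dlk1-Meg3 region to restrain PI3K and mTOR signalling, and the cell cycle inhibitor encoded by Cdkn1c to hold cells in G0. The tables do not separate the parental alleles, so a level below is the sum of both.

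Fold changes are the authors' log2 values, none of which passes -4 or 4; a value of -4 stands for at least a 16-fold lower level. Calls were made at an adjusted p, as the authors give it, under 0.05, and whether cells or samples were the unit of that test is unknown. The level of each gene in each cluster was rebuilt from the overall mean, the fold change and an estimate of each cluster's share of the cells, and is given as counts per 1000000 (CPM). Where the fold change was at its lower limit, the level is an upper bound. By this estimate c1 made up 40.7% of the cells, c2 33.7%, c3 12.2%, c4 10.3%, c5 1.67%, c6 1.03% and c7 0.345%. Levels of different genes are not compared with each other, since they are not per length.

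Markers place the clusters. In the authors' deposited table of c1, 7 of 9 stem cell markers, among them Procr and Slamf1, were called higher and none lower, and all 5 cell cycle markers lower. In the authors' deposited table of c2, 7 stem cell markers were higher and 1 lower, with all 5 cell cycle markers lower. Cell cycle markers were called higher for 2 of 5 and lower for 1 in c3, and higher for 5 of 5 in c4 and in c5, in the authors' deposited tables. Erythroid markers were called higher for 5 of 5 in c3 and for 3 of 5 in c4 in the authors' deposited tables. Granulocyte and monocyte markers were higher for 4 of 5 in c5, neutrophil markers for 5 of 5 in c5 and in c6, and B cell markers for 5 of 5 in c7, again in the authors' deposited tables. In c1 the granulocyte and monocyte marker Prtn3 was called higher at 1.54, and 4 of the 5 lower, in the authors' deposited table. The level of Prtn3 was 1053 CPM in c1 and 779 in c5. Of the 9 stem cell markers, 8 were called lower in c3, 7 in c4, all 9 in c5 and in c6, and 6 in c7 in the authors' deposited tables, which goes against the HSC label for those cells.

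**Figure D1:**
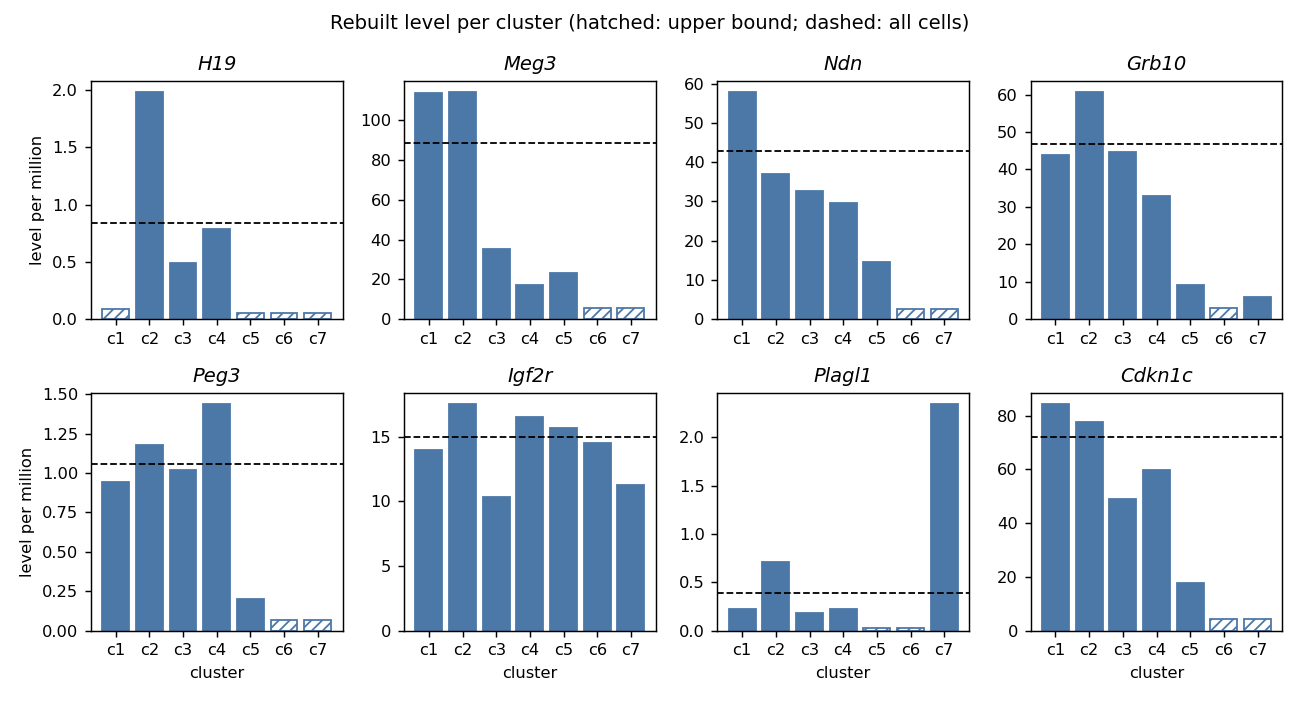
Rebuilt level in CPM (y axis, linear, from 0, with its own scale for each gene) of the 8 imprinted genes in clusters c1 to c7 (x axis); filled bars are values, hatched bars upper bounds, and the dashed line is the mean of all cells. Meg3, Ndn and Cdkn1c stood above the mean of all cells in c1, H19 stood highest in c2, and Igf2r was between 10.3 and 17.5 CPM in all 7 clusters.

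Of the genes that encode noncoding RNA, Meg3 was higher against the rest in both c1 and c2, and H19 in c2. Meg3, the maternal RNA of the Dlk1-Meg3 region, had a level of 114 CPM in c1, 114 in c2, 35.5 in c3, 17.3 in c4 and 23.3 in c5, with at most 5.60 in c6 and 5.56 in c7. It was thus high in c1 and c2, and its levels in c4 and c5, where all 5 cell cycle markers were called higher, were the lowest of those that are not bounds. The authors' deposited tables called Meg3 higher in c1 (log2 fold change 0.66, adjusted p = 1.50e-14) and in c2 (0.59, adjusted p = 6.08e-10). The authors' deposited tables called it lower in c3 at -1.44, in c4 at -2.49, in c5 at -1.95 and in c6 at -4. The -4 of c7 was not called in the authors' deposited table. Between c1 and c2 the authors' deposited table gave 0.0018 for Meg3 (adjusted p = 1).

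On GRCm38 (GENCODE M21), Meg3 is a long noncoding RNA gene on chromosome 12 from 109541001 to 109571726 (plus strand). Its promoter is shown because the region is silenced or read according to methylation of CpG pairs, which are in capitals here and in the promoters below. These windows of 300 bases run from upstream of to just past a RefSeq start (GRCm38.p6), and this one is chr12:109540746-109541045, plus strand, with 13 CpG pairs. Another RefSeq start of Meg3, with the window chr12:109545148-109545447, had 1 CpG pair.
Meg3: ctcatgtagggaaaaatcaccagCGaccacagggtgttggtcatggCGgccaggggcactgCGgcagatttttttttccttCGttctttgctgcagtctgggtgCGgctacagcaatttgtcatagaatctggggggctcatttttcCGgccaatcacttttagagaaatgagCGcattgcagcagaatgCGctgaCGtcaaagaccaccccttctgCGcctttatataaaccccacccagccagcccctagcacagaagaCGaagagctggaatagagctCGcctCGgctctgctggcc

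H19 had a level of at most 0.0849 CPM in c1, with 1.98 in c2, 0.492 in c3 and 0.785 in c4. It was also at its bound in c5, c6 and c7, at most 0.0534, 0.0531 and 0.0527 CPM. H19 was thus highest in c2 and near the bottom of the scale in c1, while in both clusters stem cell markers were called higher and cell cycle markers lower. The authors' deposited table for c1 over c2 gave -4 for H19 (adjusted p = 4.53e-09), or at least 16-fold lower in c1. Against the rest, H19 was called lower in c1 at -4 (adjusted p = 1.04e-06) and higher in c2 at 2.91 (adjusted p = 2.82e-06) in the authors' deposited tables. It was not called in c3, c4, c5, c6 or c7 in the authors' deposited tables. The mean of H19 over all cells was 0.841 CPM, below the median gene, so these calls rest on a scarce transcript, and how many counts lie behind them is unknown.

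H19 spans chromosome 7 from 142575529 to 142578143, on the minus strand, and contains the hairpin of miR-675, whose mature forms are shown because they are the known small RNA product of this transcript. They were not analysed here. Capitals mark the seed, bases 2 to 8 (RefSeq, GRCm38.p6, chromosome 7, minus strand). Their seeds differ, so they form separate seed families.
mmu-miR-675-5p: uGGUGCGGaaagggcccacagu
mmu-miR-675-3p: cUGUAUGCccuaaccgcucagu

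Among the growth suppressors, Ndn was higher in c1 and lower in c2 against the rest, and Cdkn1c was higher in both. Ndn encodes necdin, a paternally expressed protein of the MAGE family that restrains cell cycle entry. Its level was 57.8 CPM in c1, 36.9 in c2, 32.7 in c3, 29.5 in c4 and 14.5 in c5, and at most 2.70 in c6 and 2.69 in c7. Ndn was therefore highest in c1, with smaller steps from c2 to c4. The authors' deposited table for c1 over c2 gave 0.66 (adjusted p = 6.80e-38), a 1.58-fold higher level in c1. Against the rest it was called higher in c1 at 0.83, and lower in c2 at -0.31, c3 at -0.44, c4 at -0.59 and c5 at -1.58, and at the limit of -4 in c6 and c7, in the authors' deposited tables.

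Ndn lies on chromosome 7 from 62346569 to 62350262 (plus strand). Its promoter window, chr7:62348027-62348326 on the plus strand, holds 11 CpG pairs, most of them near the start site.
Ndn: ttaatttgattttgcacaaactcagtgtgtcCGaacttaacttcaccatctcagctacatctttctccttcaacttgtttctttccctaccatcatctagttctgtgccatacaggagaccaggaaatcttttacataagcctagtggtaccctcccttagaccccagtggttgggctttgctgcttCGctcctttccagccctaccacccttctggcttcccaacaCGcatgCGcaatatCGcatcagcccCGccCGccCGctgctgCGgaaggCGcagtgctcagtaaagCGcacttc

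Cdkn1c encodes p57, the imprinted inhibitor of cyclin-dependent kinases, expressed from the maternal copy. The level of Cdkn1c was 84.4 CPM in c1, 77.6 in c2, 49.1 in c3, 59.8 in c4 and 17.7 in c5, and at most 4.55 in c6 and 4.52 in c7. Cdkn1c thus stayed within 49.1 and 84.4 CPM over c1 to c4, and was lower in c5. It was called higher in c1 (0.41, adjusted p = 2.07e-18) and in c2 (0.16, adjusted p = 0.00383) in the authors' deposited tables. It was called lower in c3 at -0.62, in c4 at -0.30, in c5 at -2.04 and in c6 and c7 at -4, also in the authors' deposited tables. Between c1 and c2 the difference was small: the authors' deposited table gave 0.13 (adjusted p = 0.0136), a 1.09-fold higher level in c1. Cdkn1c lies on chromosome 7 from 143458339 to 143461050 (minus strand).

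The adaptor and receptor of growth factor signalling were both lower in c1 than in c2. Grb10 encodes an adaptor that binds the insulin and IGF receptors and dampens their signal, and is maternally expressed in most tissues. Its level was 43.7 CPM in c1, 60.6 in c2, 44.6 in c3, 32.9 in c4, 9.02 in c5 and 5.94 in c7, and at most 2.95 in c6. Grb10 thus peaked in c2 and was low in c5, c6 and c7. The authors' deposited table for c1 over c2 gave -0.48 for Grb10 (adjusted p = 1.60e-21), and the c2 level was 1.39 times the c1 level on that scale. Against the rest it was called higher in c2 at 0.61 and lower in c1 at -0.16, c4 at -0.56, c5 at -2.40, c6 at -4 and c7 at -2.98, in the authors' deposited tables. The value of -0.08 in c3 was not called in the authors' deposited table.

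Igf2r encodes the maternally expressed receptor that carries IGF2 and mannose 6-phosphate tagged enzymes to the lysosome. Its level was 13.9 CPM in c1, 17.5 in c2, 10.3 in c3, 16.5 in c4, 15.7 in c5, 14.5 in c6 and 11.3 in c7. Unlike the other 7 genes, Igf2r was at no limit in any cluster. It was called lower in c1 than in c2 (-0.33, adjusted p = 0.000379) in the authors' deposited table, with the c2 level 1.26 times that of c1. The authors' deposited tables also called it higher in c2 against the rest (0.36, adjusted p = 0.000355) and lower in c3 (-0.60, adjusted p = 0.000577), and did not call it in the other clusters.

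Both promoters are dense in CpG pairs and are shown for that reason: the Grb10 window, chr11:12037371-12037670 on the minus strand, holds 45, and the Igf2r window, chr17:12769657-12769956 on the minus strand, holds 34. The median over 32851 promoter windows of this length was 7, and 98.1% and 92.3% of them held fewer than Grb10 and Igf2r. Grb10 spans chromosome 11 from 11930508 to 12038683 (minus strand), and Igf2r spans chromosome 17 from 12682406 to 12769664 (minus strand). Another RefSeq start of Grb10 had 9 CpG pairs.
Grb10: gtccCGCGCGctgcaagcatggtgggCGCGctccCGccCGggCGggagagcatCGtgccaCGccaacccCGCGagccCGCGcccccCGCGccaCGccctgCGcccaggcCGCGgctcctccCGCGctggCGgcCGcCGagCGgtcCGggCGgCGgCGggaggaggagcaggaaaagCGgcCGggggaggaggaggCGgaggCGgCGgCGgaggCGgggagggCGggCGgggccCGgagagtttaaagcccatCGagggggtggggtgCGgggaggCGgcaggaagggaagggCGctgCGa
Igf2r: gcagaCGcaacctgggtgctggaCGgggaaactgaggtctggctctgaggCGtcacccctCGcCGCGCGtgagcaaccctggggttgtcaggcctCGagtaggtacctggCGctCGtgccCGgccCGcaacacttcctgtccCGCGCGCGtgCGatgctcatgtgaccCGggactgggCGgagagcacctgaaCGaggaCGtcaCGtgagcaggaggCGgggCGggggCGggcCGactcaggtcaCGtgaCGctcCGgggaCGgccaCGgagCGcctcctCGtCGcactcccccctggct

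The zinc finger genes were scarce. Plagl1, which encodes a paternally expressed transcription factor that halts the cycle, had a level of 0.227 CPM in c1, 0.712 in c2, 0.183 in c3, 0.226 in c4 and 2.34 in c7, and at most 0.0245 in c5 and 0.0243 in c6. Its c7 level was the highest, but the fold change behind it was not called in the authors' deposited table (2.63, adjusted p = 0.964). The authors' deposited table for c1 over c2 gave -1.65 (adjusted p = 0.0176), a c2 level 3.15 times that of c1. Against the rest it was called higher in c2 (1.69, adjusted p = 0.0252) in the authors' deposited table, and in no other cluster.

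Peg3, a paternally expressed zinc finger gene linked to growth and stress responses, was not called in any of the authors' deposited tables. Its level was 0.942 CPM in c1, 1.18 in c2, 1.02 in c3, 1.44 in c4 and 0.204 in c5, and at most 0.0666 in c6 and 0.0661 in c7. Between c1 and c2 the authors' deposited table gave -0.32 (adjusted p = 0.471), and the standard error is not given. The mean of Peg3 over all cells was 1.05 CPM and that of Plagl1 0.386, both below the median gene, so a difference in Peg3 may not have been detectable.

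Plagl1 spans chromosome 10 from 13060504 to 13131694 on the plus strand. Peg3 spans chromosome 7 from 6703892 to 6730431 on the minus strand. The letters GGGGCCCC, a palindrome of the kind reported for the PLAGL1 protein, were searched in the promoter windows of 7 of the 9 genes that had an entry. They occurred in 1 of 9 windows, that of Peg3, and in 354 of 32851 windows overall (1.08%). A palindrome reads the same on both strands. The Plagl1 window, chr10:13090582-13090881 on the plus strand, holds 26 CpG pairs, in capitals, and in the Peg3 window, chr7:6730370-6730669 on the minus strand, the palindrome is in capitals.
Plagl1: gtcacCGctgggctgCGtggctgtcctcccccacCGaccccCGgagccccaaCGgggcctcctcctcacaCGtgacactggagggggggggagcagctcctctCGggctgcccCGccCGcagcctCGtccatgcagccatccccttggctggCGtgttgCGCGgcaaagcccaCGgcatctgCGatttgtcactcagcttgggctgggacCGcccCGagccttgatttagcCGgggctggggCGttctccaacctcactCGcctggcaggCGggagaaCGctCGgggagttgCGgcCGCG
Peg3: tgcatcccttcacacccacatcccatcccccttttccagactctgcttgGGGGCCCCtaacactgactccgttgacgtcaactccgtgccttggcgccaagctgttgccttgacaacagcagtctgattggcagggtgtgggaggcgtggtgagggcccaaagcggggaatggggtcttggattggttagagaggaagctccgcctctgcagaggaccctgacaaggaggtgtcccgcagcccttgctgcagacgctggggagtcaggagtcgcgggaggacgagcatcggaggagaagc

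**Figure D2:**
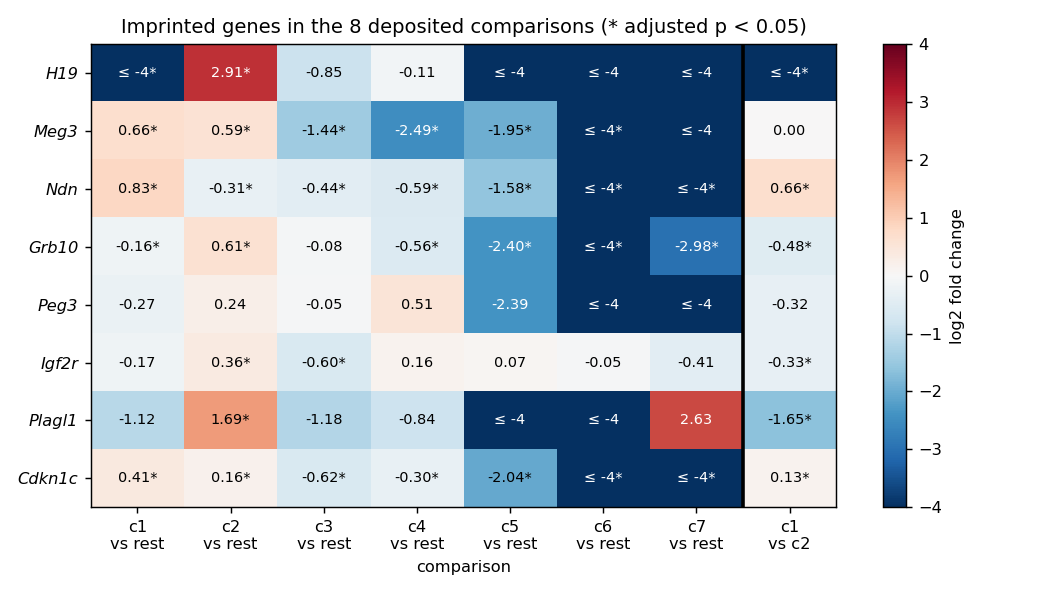
Log2 fold changes of the 8 imprinted genes (rows) in the 8 deposited comparisons (columns: each cluster against the rest, then c1 against c2); colour runs from -4 (blue) to 4 (red), numbers are the deposited values and an asterisk marks an adjusted p under 0.05. H19 is at the lower limit in c1 and at 2.91 in c2, and blue cells fill most of c5, c6 and c7.

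Counted by table, the genes were spread over both directions in c1, mostly higher in c2 and lower or uncalled in the other clusters. In the authors' deposited table of c1, 3 of 8 were called higher and 2 lower, where 13.3% and 29.7% of all genes were, and 43% in either direction. For c2 the authors' deposited table had 6 of 8 higher and 1 lower (Ndn), where 15.9% and 21.4% of all genes were, and 37.2% in either direction. None of the 8 was called higher in c3, c4, c5, c6 or c7 in the authors' deposited tables, where 18.1%, 24.3%, 7.17%, 5.2% and 1.02% of all genes were. The lower calls in the authors' deposited tables numbered 4 of 8 in c3 (10.2% of all genes, 28.3% in either direction), 4 in c4 (10.6%, 34.9%), 4 in c5 (9.3%, 16.5%), 4 in c6 (35.7%, 40.9%) and 3 in c7 (5.16%, 6.18%). Ndn and Cdkn1c were called lower in each of these 5 clusters. H19, Peg3 and Plagl1, which lay below the median expression, were called lower in none of them. The median fold change of the 8 genes in the authors' deposited tables was -0.16 in c1, 0.47 in c2, -0.61 in c3, -0.43 in c4 and -2.22 in c5, where that of all genes was -0.14, -0.06, -0.04, 0.01 and -0.52. In c6 and c7 both medians were at -4, and 11373 and 11131 genes were at the lower limit there. Of the 8 genes, 5 lay above the median expression. The counts here and for c1 against c2 have no share matched for expression beside them.

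In the direct comparison of c1 with c2, 2 of 8 genes were called higher (Ndn and Cdkn1c) and 4 lower (H19, Plagl1, Grb10 and Igf2r), where the authors' deposited table called 15.4% and 22% of all genes, and 37.4% in either direction. The median of the 8 genes was -0.33, against -0.03 for all genes. The genes did not move as a block by parent of origin: of those read from the maternal copy, H19, Grb10 and Igf2r were lower in c1 and Cdkn1c higher, and of those read from the paternal copy, Plagl1 was lower and Ndn higher. H19 and Plagl1 differed most in fold and were scarce, whereas Ndn and Grb10 differed by less and lay above the median expression. No interval can be given for the rest of the order of clusters, since c1 and c2 are the clusters that were set against each other directly.

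Other transcripts moved with c1 against c2. In the authors' deposited table Xist, which coats the silenced X chromosome, was at the limit of -4 and its antisense partner Tsix at -3.47. The Y-linked genes Eif2s3y, Ddx3y, Uty and Kdm5d were called higher at 1.03, 0.78, 0.64 and 0.36 in the authors' deposited table. These sex-linked genes were chosen after their values were seen, the labels used here do not give the sex of the mice, and their part in the differences of the imprinted genes was not tested. Endothelial markers had a summed level of 60.1 CPM in c1 and 10.9 in c2, with 2 of 6 called higher in c1 (Ramp2 at 3.09 and Kdr at 0.69) in the authors' deposited table and none at the limit in c1 or c2. Stromal markers, 7 of 8 of which had a row, summed to 11.2 CPM in c1 and 10.8 in c2, with none called in the authors' deposited table for c1 over c2, and their part was not tested either. Over the 7 clusters stromal markers summed to 5.72 to 21.8 CPM and endothelial markers to 1.93 to 60.1 CPM, with genes at the limit counted at their bound and all 6 endothelial markers there in c6 and c7. Granulocyte and monocyte markers were higher in c1 than c2 for 4 of 5 and cell cycle markers lower for 4 of 5 in the authors' deposited table, and the part of these in the result was not tested. Stem cell markers split into 4 of 9 higher, among them Slamf1 at 0.96, and 4 lower, among them Hlf at -0.70, in the authors' deposited table. Neutrophil markers were lower for 2 of 5, S100a9 at -0.39 and S100a8 at -0.33, in the authors' deposited table.

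The neighbours of these genes in the imprinted regions were then followed, 24 of 33 listed genes having a row. In c1 against c2, 5 were called higher and 5 lower in the authors' deposited table, near the 15.4% and 22% of all genes. The median of the 24 was 0.03, against -0.03 for all genes. In the Dlk1-Meg3 region, Dlk1, a paternally expressed transmembrane inhibitor of differentiation, was higher in c1 at 0.89 (adjusted p = 1.06e-05) in the authors' deposited table. Mirg, a maternal RNA that hosts 14 miRNA genes, was higher at 0.83 (adjusted p = 0.0222) in the authors' deposited table, where Meg3 itself was at 0.0018. Against the rest, Dlk1 was at 1.05 and Mirg at 1.36 in c1, and Mirg was lower in c4 at -3.48, all called in the authors' deposited tables. Rtl1 at 4 and Begain at 0.39 in c1 against c2 were not called in the authors' deposited table. The mean of Rtl1 over all cells was 0.0150 CPM, and its c2 level was an upper bound. The calls of Mirg and, near Grb10, of Ddc in c1 against c2 were lost at an adjusted p under 0.01, and both genes lie below the median expression. Meg3 and Mirg were thus both called lower in c4, and the difference between them in c1 against c2 was not tested.

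In the region of Ndn, the closest listed genes with a row, Mkrn3 (67.3 kb away) at -0.06 and Peg12 (112 kb) at 0.17, were not called. Snrpn, which is paternally expressed and lies 2206 kb from Ndn, was higher in c1 than in c2 (0.61, adjusted p = 5.22e-06) in the authors' deposited table. Ube3a, 3035 kb from Ndn, was lower at -0.18. Near H19 and Cdkn1c, Igf2, the growth factor gene that shares its enhancers with H19, was not called at -0.53 (adjusted p = 0.596) in the authors' deposited table, and its mean over all cells was 0.212 CPM. Phlda2, which restrains growth of the placenta, was lower in c1 at -0.97 (adjusted p = 2.71e-42) and the noncoding RNA Kcnq1ot1 at -0.46, whereas Cd81 was higher at 0.12, in the authors' deposited table. Slc22a18 at -0.18, Nap1l4 at 0.03, Tssc4 at 0.09, Tspan32 at 0.02, Ascl2 at 0.29 and Kcnq1 at -0.86 were not called in the authors' deposited table. Cdkn1c, within this region, was thus on the other side of 0 from Phlda2 and Kcnq1ot1.

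Near Grb10, Ddc was higher in c1 at 1.41 (adjusted p = 0.0227) in the authors' deposited table, and Cobl at 4 was not called. Near Igf2r, Slc22a3, an organic cation transporter gene, was lower at -0.53, and Slc22a2 at -4 was not called, in the authors' deposited table. Airn, the paternal noncoding RNA that overlaps Igf2r on the opposite strand, was lower in c1 at -0.33 (adjusted p = 0.00796), close to the -0.33 of Igf2r in the authors' deposited table. Since it is not known whether counting used strand, reads from the stretch where Igf2r and Airn overlap cannot be told apart. The pair differed in c4, where Airn was called lower at -0.78 and Igf2r was at 0.16, not called, in the authors' deposited tables. Usp29, beside Peg3, was at 0 in c1 against c2 and was not called in the authors' deposited table. It was at the lower limit against the rest in both c1 and c2, so the 0 does not show equal levels. Cobl and Slc22a2 were also scarce, with means over all cells of 0.0987 and 0.0082 CPM. Meg3 and Cdkn1c each overlap a predicted antisense gene that was called in none of the 8 tables.

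**Figure D3:**
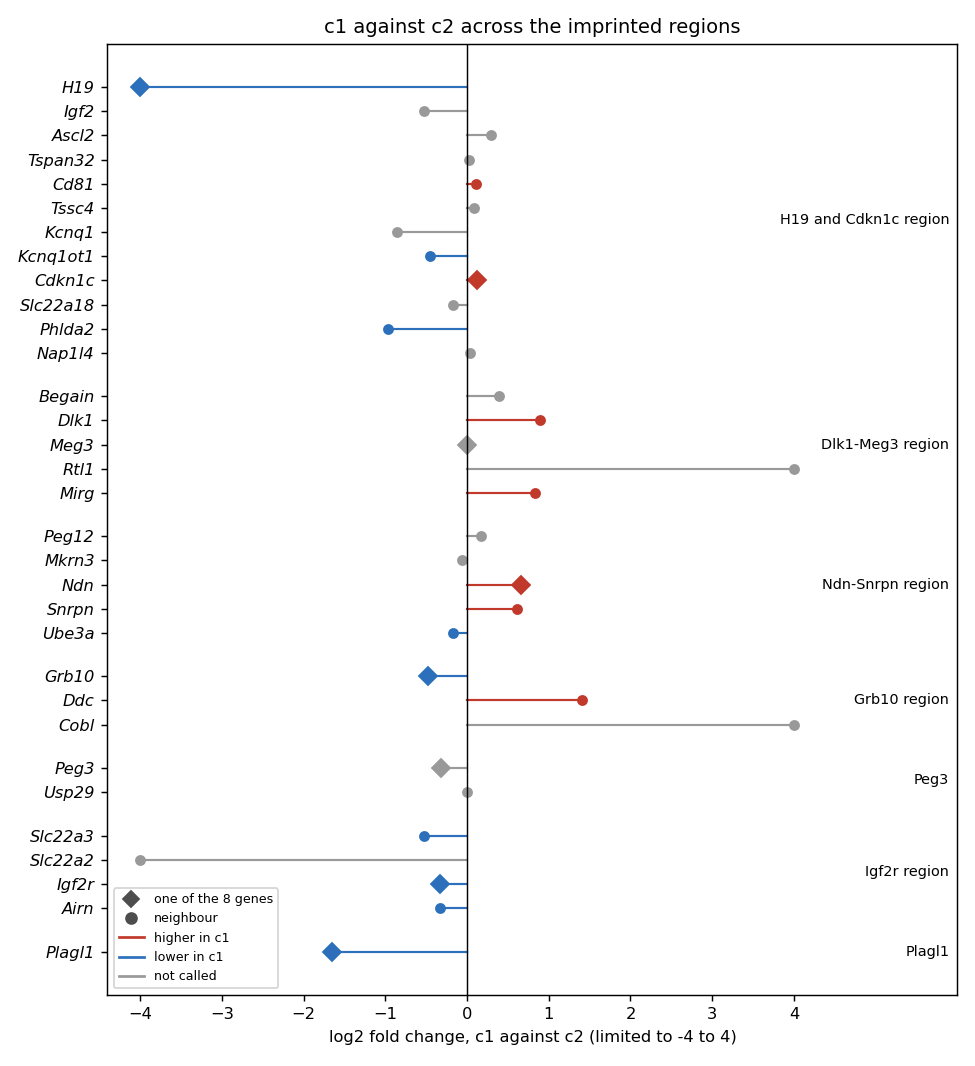
Log2 fold change of c1 against c2 (x axis, limited to -4 to 4) for the 8 imprinted genes (diamonds) and their neighbours (circles), grouped by imprinted region; red marks a gene called higher in c1, blue lower, grey not called. Dlk1, Mirg, Ndn, Snrpn and Ddc sit to the right, and H19, Plagl1, Phlda2 and Grb10 to the left.

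A further list of imprinted genes elsewhere in the genome had 38 of 43 members in the tables, of which 2 were called higher and 14 lower in c1 against c2 in the authors' deposited table, beside 15.4% and 22% of all genes. Their median was -0.21, against -0.03 for all genes. The higher ones were Asb4 at 1.56 and Ampd3 at 1.26 in the authors' deposited table. Nespas, an antisense RNA of the Gnas region, was the farthest lower at -3.82 (adjusted p = 4.53e-05), and Cdh15 was at -0.80, in the authors' deposited table. Against the rest, Asb4 stood at 2.17, Ampd3 at 1.07, Nespas at -4 and Gatm, an enzyme of creatine synthesis, at -0.72 in c1, again in the authors' deposited table. Asb4, Nespas and Cdh15 lay below the median expression, and the c1 level of Nespas was an upper bound. In the authors' deposited table of c2, called genes of the 38 were 13 higher and 4 lower, beside 15.9% and 21.4% of all genes.

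The insulin and IGF pathway, on which H19, Grb10 and Igf2r act, held genes that differed widely between c1 and c2. Of 34 listed genes 32 had a row, and 2 were called higher and 20 lower in c1 in the authors' deposited table, beside 15.4% and 22% of all genes. Their median was -0.26, against -0.03 for all genes. Of the 32, 27 lay at or above the median expression, and the median of all such genes was -0.07. The share of such genes that was called was not computed, so the counts have no share matched for expression beside them. Igf1, the growth factor gene, was at -3.65 (adjusted p = 8.83e-32) in the authors' deposited table, and its level was 0.690 CPM in c1 and 8.54 in c2. The RNA-binding genes Lin28b, known from fetal HSC, and Igf2bp2 were at -3.37 and -2.28 in the authors' deposited table. The level of Lin28b was 0.156 CPM in c1 and 1.60 in c2. Igfbp7, which encodes an IGF-binding protein family member, was higher at 3.55 (adjusted p = 2.47e-23) in the authors' deposited table, with levels of 3.16 CPM in c1 and 0.273 in c2. The other higher gene was Eif4ebp1 at 0.41 and the receptor gene Igf1r was lower at -0.47 in the authors' deposited table; these genes were picked with their values in view. Igf2 belongs to this list and to the neighbours, and was called in neither direction. Of the genes named from this list, Igf1, Lin28b, Igfbp7 and Igf2 lay below the median expression, so their values rest on scarce transcripts.

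Factors that set, keep or remove DNA methylation or imprints were set beside these results, as a list named imprint maintenance. Its counts pool these roles, with the demethylase genes Tet1, Tet2 and Tet3 among them. Of 15 listed genes 14 had a row, and 1 was called higher and 11 lower in c1 against c2 in the authors' deposited table, beside 15.4% and 22% of all genes. The median of the 14 was -0.24, against -0.03 for all genes. Of the 14, 13 lay at or above the median expression, where the median of all genes was -0.07. Here too the counts have no share matched for expression beside them. The higher gene was Zfp57, which binds methylated imprinting control regions, at 1.41 (adjusted p = 1.98e-28) in the authors' deposited table, with levels of 10.3 CPM in c1 and 3.90 in c2. The methyltransferase genes Dnmt3a at -0.81 and Dnmt3b at -0.74 and the demethylase gene Tet3 at -0.78 were lower in the authors' deposited table. Against the rest, c1 had Uhrf1 at -3.0, Dnmt1 at -1.36, Tet3 at -0.77 and Zfp57 at 1.25 in the authors' deposited table. In c3 and c4, 7 and 8 of the 14 were called higher in the authors' deposited tables, where 18.1% and 24.3% of all genes were.

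**Figure D4:**
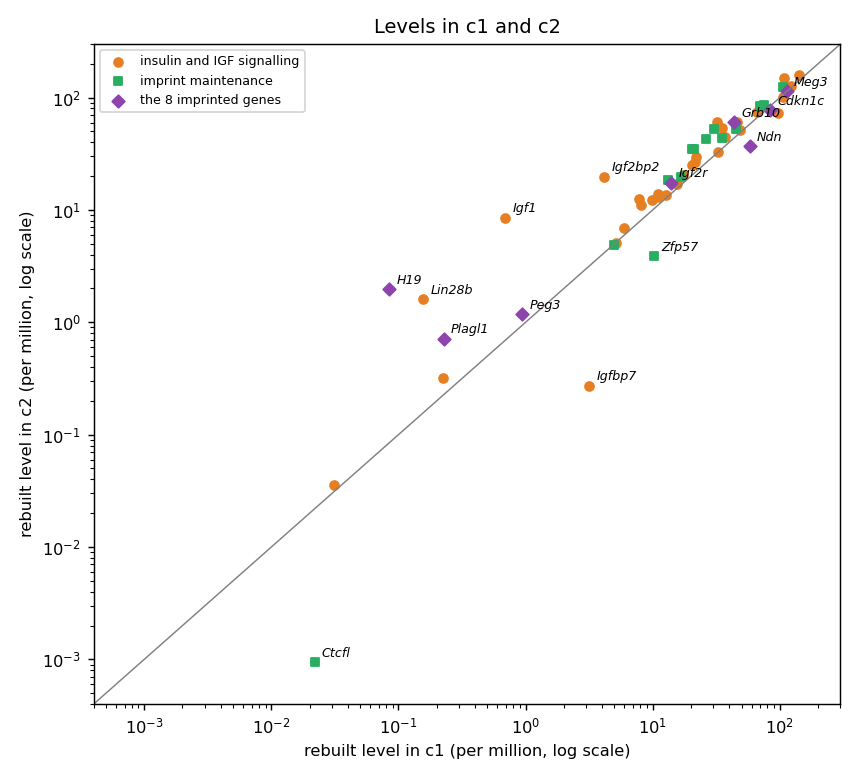
Rebuilt level in CPM in c1 (x axis, log scale) and in c2 (y axis, log scale) for the insulin and IGF list (circles), the imprint maintenance list (squares) and the 8 imprinted genes (diamonds); the line marks equal levels, and the c1 level of H19 and the c2 level of Ctcfl are upper bounds. Igf1, Lin28b, Igf2bp2 and H19 lie above the line, and Igfbp7 and Zfp57 below it.

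The genes most like each imprinted gene were sought by the root mean square difference of the 7 log2 fold changes against the rest. Candidates lay at or above the median expression and at no limit in c1 to c5, and predicted genes were left out. These 7 values share cells and some are at the limit, so the measure is a description. Ndn was closest to Tmem176a (0.0356), Tgtp2 (0.0926) and Cyyr1 (0.0975) among 9461 genes. Cdkn1c was closest to Myct1 (0.0948), Prr15 (0.105) and Slc30a4 (0.105). For Meg3 the closest was Procr (0.224), which encodes the stem cell surface receptor EPCR, then Ctsf (0.265) and Smtnl1 (0.348). Grb10 was followed by Maged1 (0.236), a MAGE family gene like Ndn, Slc18a2 (0.307) and Rbpms (0.347), and Igf2r by Col4a3bp (0.149), Vps11 (0.175) and Stxbp3 (0.189).

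Of the scarce genes, H19 and Plagl1 had looser matches than Peg3. The choice of candidates sets part of this: H19 was at the limit in c1 and c5, Plagl1 in c5, and no candidate was. The looser matches can therefore not be read as a trait of these genes. H19 was closest to Nrk (0.660), Plxdc2 (0.944) and Mamdc2 (1.23) among 9462 genes, and Plagl1 to Tnfrsf13c (0.922), Bend5 (1.05) and Snn (1.14). Peg3 was closest to P2ry14 (0.131) and Car2 (0.153). Among the imprinted genes themselves the closest pair was Ndn and Cdkn1c, at 0.325, where Cdkn1c ranked 111 of 9461 genes by closeness to Ndn.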

How the data were processed

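The values were processed by the authors before deposit, and Scanpy, GSNAP, HTSeq and the build GRCm38.p4 are named, with no role, per the submitters' processing notes. The sources used here do not give the assay, clustering, cell filters, doublet treatment or test. The authors' deposited mean expression is a log2 value that is the same in all 8 tables; 2 raised to it summed to 10000 over genes, and 8 genes held an error text. Fold changes deposited by the authors are on the log2 scale, against the cells outside a cluster. The authors' deposited p-values were taken as they stand; if cells were the unit, a call describes these cells and not mice.

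Cell shares were fitted (scipy 1.17.1) on 987 genes with a log2 mean between -5 and -3, as the weights that average the cluster means to the overall mean. Over 9916 genes the rebuilt c1 to c2 ratio differed from the direct table by a median of 0.0013 (log2). Rebuilt levels are in counts per 1000000 (CPM). Genes named were the 8 members, their neighbours, up to 4 called genes per list with the largest change in c1 against c2 and in c1 against the rest, and 3 most alike genes per member, with 1 of these not reported here. The members and lists were chosen with earlier results of these data known. Positions are from GENCODE M21 and sequences from RefSeq (GRCm38.p6).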

Additional observations from a re-analysis of the deposited data

How the results depend on the processing

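Depth, cell numbers and spread between mice are unknown, which limits the calls. No paired analysis was possible because the tables hold no samples. Of the 8 genes, 3 lay below the median expression and 5 passed it. Leaving genes below it out removed H19, Plagl1 and Peg3. Grb10 was then the 1 lower call in c1, in place of 2. Grb10 and Igf2r were the 2 lower calls in c1 against c2, in place of 4. These counts were the same with the adjustment recomputed over the genes kept. With a floor of 0.5 on the absolute log2 fold change, H19 was the 1 lower call in c1, there were 0 lower calls in c2 in place of 1, and c1 against c2 had 1 higher call (Ndn) and 2 lower (H19 and Plagl1). At an adjusted p under 0.01, Ndn was the 1 higher call in c1 against c2, since Cdkn1c was lost. Plagl1 was lost there too (3 lower in place of 4) and in c2 (5 higher in place of 6), and Grb10 in c7 (2 lower in place of 3). Higher calls in c2 fell further, to 4 in place of 6, with the floor. They were also 4 above the median expression, with or without the adjustment recomputed. The floor left 2 higher calls in c1 in place of 3, and 3 lower calls in c3 and in c4 in place of 4. No called fold change of c1 against c2 changed sign when centred or taken as c1 minus c2 from their tables against the rest. Levels moved by at most 0.564% with shares fitted on more highly expressed genes. Of the 24 most alike genes, 15 were shared with a Pearson correlation and 11 with c1 to c5 alone.

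Counts of the lists for c1 against c2 changed as follows with the minimum fold change: 5 lower neighbours became 2, 14 lower of the other imprinted genes 7, 2 higher and 20 lower IGF pathway genes 1 and 6, and 11 lower imprint maintenance genes 4. Above the median expression, 5 higher neighbours became 3, and 2 higher genes became 1 among the other imprinted genes and 1 in the IGF pathway. At the stricter p, 5 higher neighbours became 3; in both cases Mirg and Ddc were lost. Against the rest, with the minimum fold change, the neighbours had 3 higher and 2 lower in c1 and 2 and 3 in c2, in place of 5 and 5 and 5 and 6. The other imprinted genes had 5 lower in c1 in place of 12 and 6 higher in c2 in place of 13. The IGF pathway had 1 higher and 7 lower in c1 in place of 3 and 20, and 8 higher and 1 lower in c2 in place of 16 and 4. The imprint maintenance list had 7 lower in c1 in place of 12, and 2 higher and 3 lower in c2 in place of 6 and 6. At the stricter p, lower neighbours in c2 were 2 in place of 6, and above the median expression the other imprinted genes had 2 higher in c1 in place of 4. At the main threshold, 13.3% of all genes were called higher and 29.7% lower in c1 against the rest, and 15.9% and 21.4% in c2. The shares of all genes under the floor, the stricter p or the expression cut were not computed. The changed counts therefore have no share of all genes beside them.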
